A study of Danio rerio with 6 samples.

Results

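The Arp2/3 complex, which nucleates branched actin filaments, was followed through the 10 rows of the deposited table named arpc1a, arpc1b, arpc2, arpc3, arpc4, arpc4l, arpc5a, arpc5b, actr2a and actr3. They were found by gene name, ignoring case, among 21837 rows with a gene name; each name had 1 row, and all 10 passed the filter on low values (1 FPKM or more on average across libraries). The RNA came from GFP+ cells of zebrafish embryos of the line Tg(fli1a:eGFP), taken at 28 hours post fertilization (hpf) and not cultured; as background, fli1a regulatory sequence is active in endothelium and in part of the blood and pharyngeal arches. One group of 3 libraries had a control morpholino (control MO), and the other group of 3 had a clec16a MO, an antisense oligomer against clec16a. Groups follow the genotype label, since the sample titles (Exp2D and NegaP) name no morpholino. The series asks how clec16a, an endolysosomal gene, acts in hematopoietic stem and progenitor cells. Values are FPKM, fragment numbers per transcript length and per sequenced library, so levels of different genes can be compared only roughly. Differences between genes in amplification or read assignment were not measured.

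Arp2 and Arp3, encoded by the actr genes, resemble actin and form the seed from which a new filament grows off the side of an existing one. Arpc2 and Arpc4 form the core that holds the mother filament, Arpc1 is a propeller that contacts activators and actin, and Arpc3 and Arpc5 complete the assembly. The complex is inactive until WASP or WAVE family proteins, themselves switched on by Rac and Cdc42, bring it an actin monomer. It builds lamellipodia, phagocytic cups and endosomal actin patches, and in humans ARPC1B is the form that blood cells rely on. In human cells, complexes that hold ARPC1B or ARPC5L build branched networks faster than those with ARPC1A or ARPC5. The zebrafish has paralogs of several subunits: arpc1a and arpc1b, arpc4 and arpc4l, arpc5a and arpc5b, and, outside the 10 members, actr2b, arpc5la and arpc5lb.

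Of the 10 members, 5 rose in the clec16a MO libraries (arpc4, arpc5b, arpc2, arpc1b and actr2a), 3 fell (actr3, arpc5a and arpc4l) and 2 did not pass the test (arpc1a and arpc3). The test was limma's moderated test on log2(FPKM + 1) over 12153 genes, with a threshold of 0.05 on the Benjamini-Hochberg adjusted p. Over all genes tested, 26.7% were called higher and 54.6% lower; in 27.6% all 3 clec16a MO libraries lay above all 3 control libraries, and in 56.1% below them, which held for the same 5 and 3 members that were called. These shares are a description of 10 rows with no test. Of the 3 that fell, actr3 passed the filter only through the control libraries, so a higher call was not possible for it. The median log2 difference, clec16a MO minus control MO, was 0.30 over the 10 members and -0.66 over all tested genes. The direction of the smaller differences depended on scaling. With each library centred on its own median, which moved the all-gene median by 0.69, 8 members were called higher and 2 lower, beside 39.7% and 38.1% of all genes. With quantile normalization, which moved it by 0.62, 5 were called higher and 4 lower, beside 38.0% and 39.8% of all genes, so the share of members called lower was then that of the table.

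**Figure D1:**
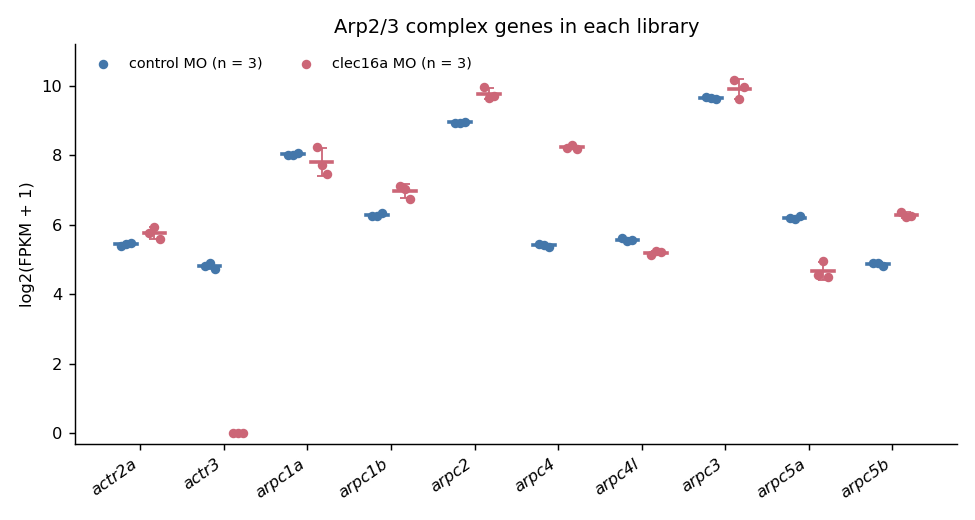
Level of each Arp2/3 member as log2(FPKM + 1) in the 3 control MO (blue) and 3 clec16a MO (red) libraries; bars are the mean and SD of each group, and none is drawn for actr3, for which all 3 clec16a MO libraries list 0. The groups are farthest apart for actr3 and arpc4, and overlap for arpc1a and arpc3.

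The samples differed broadly. clec16a itself fell from 14.3 ± 0.144 (SD, n = 3) to 5.16 ± 0.798 FPKM (limma adjusted p = 5.5e-05), and between 15153 and 15871 rows were above 0 in the clec16a MO libraries against 19250 to 19317 in the control libraries. Endothelial markers were present in both groups but lower with the clec16a MO: 17 of 18 tested were called lower, and their summed level lay below the control range (5242 to 5282 FPKM against 1716 to 2134 FPKM). fli1a, the gene of the GFP line, fell from 1049 ± 71.2 to 107 ± 9.02 FPKM (limma adjusted p = 2.5e-07). clec14a was not called. The endothelial transcription factor gene erg was listed at 0 with the clec16a MO in all 3 libraries, which can be a failed estimate. Markers of other cells moved as well. All 20 tested red cell rows, 8 of 10 macrophage rows and 11 of 12 neutrophil rows were called higher, and 15 of 15 muscle and 9 of 9 epidermal genes were called lower. Several genes called lower passed the filter only through the control libraries, so a higher call was not possible for them. Examples are myhz2 and desma of muscle, krt91 and tp63 of epidermis, and the endothelial genes tek and she. Of 4 tested thrombocyte genes 3 were called higher and 1, fli1a, lower. The 3 called higher, gp1bb, gp9 and nfe2, passed the filter only through the clec16a MO libraries (control means of 0.427, 0.625 and 0.247 FPKM). The red cell row epb41b also passed it only through those libraries. Of 6 tested neural crest and arch genes 1 was called higher and 4 lower, and these 4 passed the filter only through the control libraries. Beside all these counts stand 26.7% higher and 54.6% lower of all tested genes. Of these 8 macrophage rows, 5 carry one name, mfap4, and may share reads. These 5 rows, mpeg1.1, mpx, cpa5, ncf1 and both mmp13a rows were 0 in all 3 control libraries. They passed the filter only through the clec16a MO libraries, so a lower call was not possible for them. Macrophage rows low in both groups, such as csf1ra and marco, were not tested. In these bulk samples, fewer cells of a type and less RNA per cell cannot be told apart.

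Of the actin-related members, actr3 was called lower and actr2a higher. actr3, which encodes Arp3, read 26.9, 28.8 and 25.2 FPKM with the control MO; all 3 clec16a MO libraries list it at 0. No fold is given for it, because an exact 0 can be a failed estimate. Of 1389 genes with a control mean from 20 to 40 FPKM, 11 (0.792%) were listed at 0 in each clec16a MO library. These 11 included actr3 itself and sox9a. They also included nup54, a nuclear pore gene, and sec24a, a coat gene of vesicles that leave the endoplasmic reticulum. sox9a, nup54 and sec24a were singled out after their values were seen. In the other direction, of 1037 genes with a clec16a MO mean from 20 to 40 FPKM, 9 (0.868%) were listed at 0 in each control library. No row named actr3b, the other Arp3 gene of the reference table, was analysed here. Arp3 is a required subunit, and actr3 was the one member listed at 0 in any library.

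actr2a, which encodes Arp2, read 40.8, 42.3 and 43.4 FPKM with the control MO, against 53.3, 59.7 and 47.5 FPKM with the clec16a MO. The groups did not overlap, and the means differed 1.27-fold (log2 difference 0.33, SE 0.11, limma adjusted p = 0.022). The call ended when control replicate 1, 2 or 3 was left out (limma adjusted p = 0.083, 0.068 and 0.055). Its paralog actr2b, which is not among the members, fell from 9.03, 9.13 and 10.8 FPKM to 1.60, 0.494 and 0.810 FPKM without overlap (log2 difference -2.47, SE 0.22, adjusted p = 2.9e-05 with limma). Summed, the 2 Arp2 genes stood at 51.8 ± 2.23 FPKM and 54.5 ± 5.95 FPKM (SD, n = 3), with overlapping groups. The share of actr2b in that sum went from 18.1%, 17.7% and 19.98% to 2.92%, 0.820% and 1.68%.

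The largest rise among the members was that of the core gene arpc4. arpc4 read 42.5, 41.9 and 40.1 FPKM with the control MO, against 297, 313 and 287 FPKM with the clec16a MO, a 7.21-fold higher mean (log2 difference 2.82, SE 0.08, limma adjusted p = 2.0e-07). Every clec16a MO library stood far above every control library, and the difference lay 3.48 above the median of all genes on the log2 scale. arpc4 moved from the 85.4th to the 97.6th percentile of the tested genes (means over the libraries of a group), a rank that no common scaling factor changes. Its paralog arpc4l read 48.4, 45.4 and 45.8 FPKM against 34.3, 36.8 and 35.8 FPKM. It was called lower as deposited (log2 difference -0.38, SE 0.08, limma adjusted p = 0.0043) and higher under median centring (0.32, limma adjusted p = 0.013), so its own direction rests on scaling.

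arpc2, whose product pairs with Arpc4 in the core, read 485, 490 and 498 FPKM with the control MO, against 996, 799 and 834 FPKM with the clec16a MO. All 3 clec16a MO libraries lay above the controls, by 1.78-fold in the mean (log2 difference 0.83, SE 0.10, limma adjusted p = 0.00017). The core genes arpc4 and arpc2 did not rise in proportion, by a ratio that was not among the planned results. arpc4 stood at 0.0845 ± 0.00356 of the arpc2 level with the control MO and at 0.345 ± 0.0465 with the clec16a MO (SD, n = 3, two-sided exact permutation p = 0.1, the smallest possible for groups of 3). A common factor per library does not change this ratio. It leaves out arpc4l, the other Arpc4 gene. The arpc4 + arpc4l sum was 88.0 ± 2.55 and 335 ± 13.7 FPKM, a 3.80-fold higher mean, less than the 7.21-fold of arpc4 alone.

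The propeller genes arpc1a and arpc1b neighbour each other in the RefSeq gene table of assembly GRCz12tu, with no protein-coding gene between them, and that table also lists arpc1a as an older name of arpc1b. arpc1a read 258, 257 and 267 FPKM with the control MO, against 299, 209 and 174 FPKM with the clec16a MO. The groups overlapped, with 1 clec16a MO library above the controls and the other two below, and the log2 difference was -0.23 (95% interval -0.67 to 0.21, limma adjusted p = 0.28). It was called lower without clec16a MO replicate 1 (log2 difference -0.45, limma adjusted p = 0.0040), with quantile normalization (-0.49, limma adjusted p = 0.033) and with array weights (-0.34, limma adjusted p = 0.041), and higher with median centring (0.46, limma adjusted p = 0.048). arpc1b read 75.4, 74.8 and 79.2 FPKM against 138, 129 and 105.3 FPKM, a 1.62-fold higher mean with no overlap (log2 difference 0.68, SE 0.12, limma adjusted p = 0.0010).

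Arpc3 and Arpc5 sit at the edge of the complex. arpc3, the most abundant member, read 810, 801 and 780 FPKM with the control MO, against 1141, 781 and 989 FPKM with the clec16a MO. Clec16a MO replicate 2 lay within the control range and the other two above it (log2 difference 0.27, 95% interval -0.07 to 0.60, limma adjusted p = 0.12). Without that replicate the difference was 0.41 and passed (limma adjusted p = 0.0046), and with median centring it was 0.96 (limma adjusted p = 0.00035).

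The Arpc5 genes moved in opposite directions under each scaling tried. arpc5a read 72.5, 70.8 and 74.9 FPKM with the control MO, against 22.2, 30.2 and 21.5 FPKM with the clec16a MO (log2 difference -1.54, SE 0.14, limma adjusted p = 3.3e-05). arpc5b read 28.9, 28.5 and 27.2 FPKM and then 82.2, 73.8 and 75.0 FPKM (log2 difference 1.42, SE 0.09, limma adjusted p = 4.7e-06). Neither pair of groups overlapped. Of the other Arpc5 paralogs, arpc5la fell from 18.5 ± 0.626 to 3.09 ± 0.318 FPKM (a log2 difference of -2.26; limma adjusted p = 1.8e-06), and arpc5lb read 32.6 ± 0.846 and 37.9 ± 8.54 FPKM (SD, n = 3, log2 difference 0.19, limma adjusted p = 0.33).

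The shares of the paralogs differed between the groups for each duplicated subunit. arpc5b made up 28.5%, 28.7% and 26.6% of arpc5a + arpc5b with the control MO and 78.7%, 71.0% and 77.7% with the clec16a MO, while the sum of the 2 stayed within overlapping ranges, at 101 ± 1.42 and 102 ± 4.39 FPKM as deposited. arpc4l made up 53.2%, 52.0% and 53.3% of arpc4 + arpc4l with the control MO and 10.3%, 10.5% and 11.1% with the clec16a MO, and here the sum was higher, at 88.0 ± 2.55 and 335 ± 13.7 FPKM. arpc1b made up 22.6%, 22.5% and 22.9% of arpc1a + arpc1b with the control MO and 31.6%, 38.2% and 37.7% with the clec16a MO, with sums of 337 ± 8.14 and 352 ± 79.5 FPKM that overlapped. None of the 3 shares overlapped between the groups (exact permutation p = 0.1 for each of the 3, two-sided, the smallest possible; 0.1 after Benjamini-Hochberg adjustment), and a common factor per library does not change a share. How reads that fit both paralogs were divided is not stated by the sources at hand, which makes single paralogs less certain than sums.

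**Figure D2:**
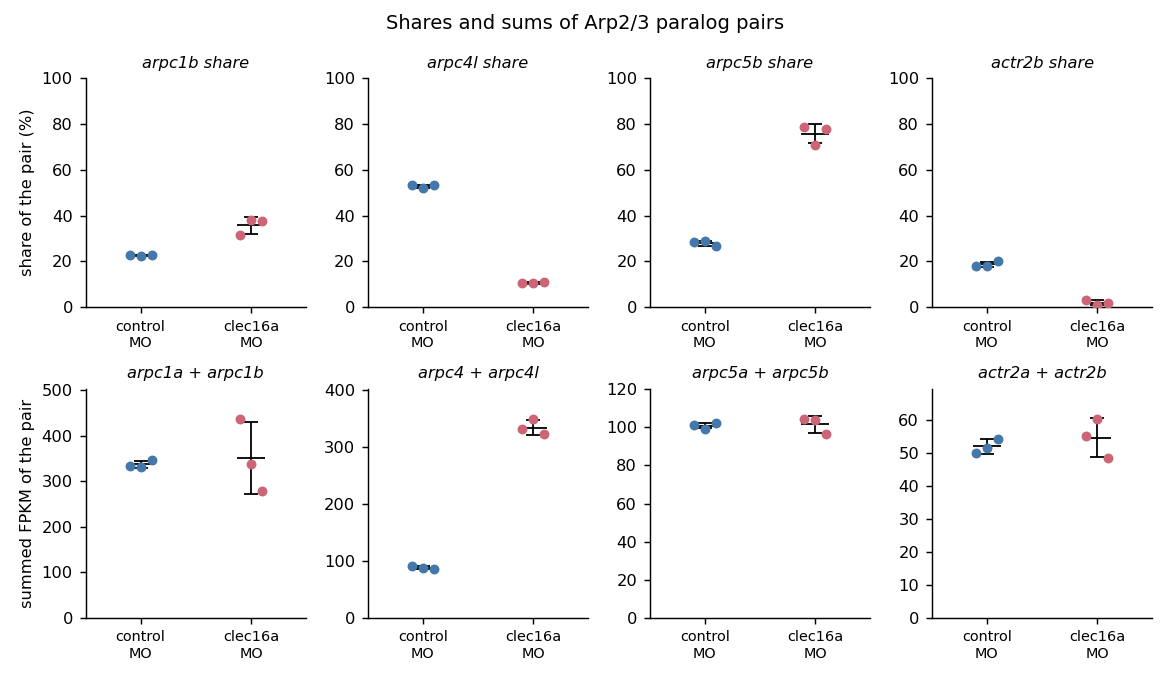
Upper row, the share of 1 paralog in the summed FPKM of its pair, in percent; lower row, the summed FPKM of the pair; points are libraries, with mean and SD for control MO (blue) and clec16a MO (red), n = 3 each. The arpc5b share goes from 27.9% to 75.8% while the arpc5a + arpc5b sum stays near 101 FPKM; the actr2 pair was added after the data were seen.

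With all 4 Arpc5 genes together, added after the data were seen, arpc5b went from 18.5% ± 0.867 to 54.0% ± 0.209 of the sum. arpc5a went from 47.8% ± 0.625 to 17.4% ± 4.16 and arpc5la from 12.2% ± 0.239 to 2.18% ± 0.343. arpc5lb made up 21.5% ± 0.370 and 26.4% ± 4.68, with overlapping groups (two-sided exact permutation p = 0.3). The 4 genes summed to 152 ± 2.43 and 143 ± 8.89 FPKM.

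In the control libraries the order of the members was arpc3, arpc2, arpc1a, arpc1b, arpc5a, arpc4l, actr2a, arpc4, arpc5b and actr3, over a 29.6-fold range of mean FPKM. Neighbours overlapped for arpc1b and arpc5a, for actr2a and arpc4, and for arpc5b and actr3. In the clec16a MO libraries the order was arpc3, arpc2, arpc4, arpc1a, arpc1b, arpc5b, actr2a, arpc4l, arpc5a and actr3, and arpc3 overlapped with arpc2 and arpc4 with arpc1a. The spread between libraries was wider with the clec16a MO, with a coefficient of variation from 3.54% to 28.2% over 9 members (median 11.9%) against 1.27% to 6.55% over 10 members (median 3.03%).

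With member paralogs summed, the 7 subunits ran in the control libraries from ARPC3 at 797 ± 15.4 FPKM through ARPC2, ARPC1, ARPC5 and ARPC4 to ARP2 at 42.2 ± 1.31 and ARP3 at 26.9 ± 1.77 FPKM. These sums leave out actr2b, arpc5la and arpc5lb. With them, control ARP2 was 51.8 ± 2.23 and ARPC5 152 ± 2.43 FPKM, and the order by group means was the same. By group means, ARPC4 passed ARPC5 with the clec16a MO and no other pair changed places; in single libraries ARPC4 also lay above ARPC1 in replicates 2 and 3, and ARPC2 above ARPC3 in replicate 2. The subunits are present once each in the assembled complex, but their summed FPKM were far from equal in either group. The 10 members together took 0.378% ± 0.00569 of each library's FPKM total with the control MO and 0.514% ± 0.0409 with the clec16a MO.

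**Figure D3:**
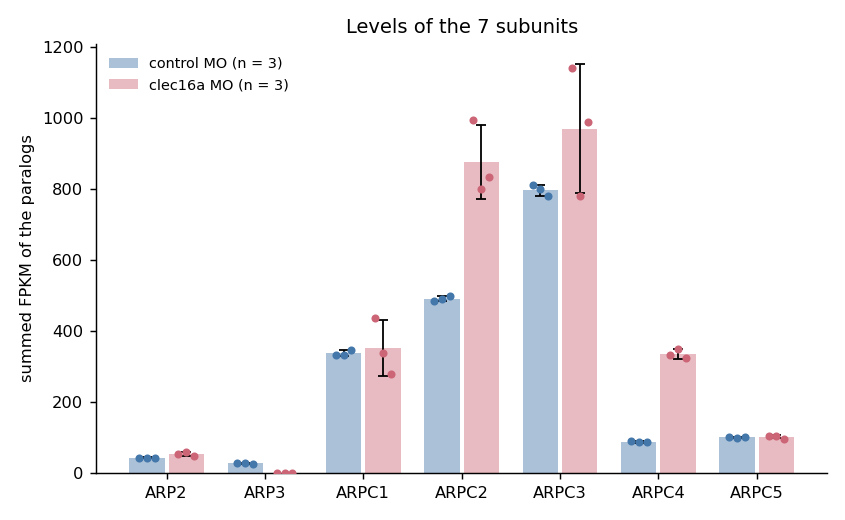
Summed FPKM of the member paralogs of each of the 7 subunits; bars are means, error bars SD and points libraries (n = 3 per group), and ARP3 has no bar with the clec16a MO, where all 3 libraries list 0. ARPC4 and ARPC2 are higher with the clec16a MO, while ARPC1 and ARPC5 overlap between the groups.

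**Figure D4:**
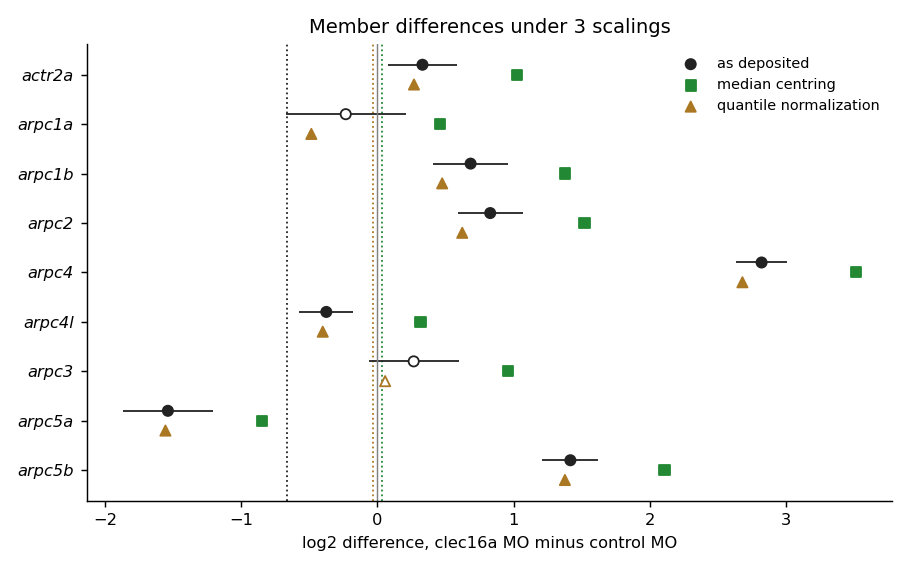
Log2 difference (clec16a MO minus control MO) of 9 members under 3 scalings; filled symbols passed the limma threshold, lines are 95% intervals for the values as deposited, and dotted lines mark the median of all tested genes under each scaling. arpc4, arpc5b, arpc2, arpc1b and actr2a are higher and arpc5a lower under each of the 3, while arpc4l and arpc1a change sign; actr3, listed at 0 in one group, is left out.

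Actin, the substrate of the complex, was lower. The cytoplasmic actin genes actb1 and actb2 fell, the first from 3222 ± 40.3 to 533 ± 61.3 FPKM, the second from 5814 ± 116 to 527 ± 27.4 FPKM (limma adjusted p = 7.2e-07 and 1.0e-07). For each 100 FPKM of actb1 + actb2 there were 21.1, 21.0 and 20.4 FPKM of the 10 members with the control MO and 285, 251 and 226 FPKM with the clec16a MO, a 12.2-fold higher ratio. This ratio was chosen after the data were seen, and it rests in large part on the fall of actin. Of 8 genes often used as references for expression 6 fell and 2 rose (median log2 difference -1.12); the translation factor gene eef1a1l1 fell 10.3-fold, from 605 ± 3.38 to 58.7 ± 1.08 FPKM. Among genes of actin monomers and filament ends, 3 of 19 tested rose (15.8%), 13 fell (68.4%) and 3 did not pass (median log2 difference -1.21). Over all tested genes 26.7% were called higher and 54.6% lower, with a median of -0.66. The filament disassembly factor gene wdr1 fell from 70.4 ± 0.564 to 0.285 ± 0.250 FPKM, while tmsb1, for a monomer-binding thymosin, rose from 42.9 ± 0.887 to 204 ± 18.7 FPKM. The other two that rose, named after their values were seen, were the cofilin gene cfl1, which severs filaments, and the profilin gene pfn1, which feeds monomers to growing ends.

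Genes of Arp2/3 activators are read against the 26.7% of all genes called higher and the 54.6% called lower. Of 15 tested rows for WASP proteins and their partners 2 rose, 9 fell (60%) and 4 did not pass (median -0.94), of 10 WAVE complex genes 1 rose, 8 fell and 1 did not pass (median -2.22), and all 4 tested genes of the WASH complex, which drives actin patches on endosomes, were called lower (median -1.36). Of these 4, median centring gave 2 called lower, and quantile normalization gave 2 lower and 1 higher. The N-WASP gene waslb fell from 6.43 ± 0.208 to 1.06 ± 0.161 FPKM and the Cdc42 effector gene fnbp1l from 22.8 ± 1.63 to 1.89 ± 0.786 FPKM. In the WAVE complex, wasf2 fell from 27.9 ± 0.911 to 2.26 ± 0.670 FPKM and abi1a from 67.2 ± 1.76 to 8.04 ± 0.244 FPKM. brk1, its smallest subunit, was the 1 that rose, from 133 ± 3.37 to 219 ± 19.4 FPKM (limma adjusted p = 0.00021). The WASH gene washc5 fell from 34.0 ± 2.24 to 5.83 ± 1.04 FPKM; the call of washc4 turned to 0.42 with quantile normalization (limma adjusted p = 0.033). The 2 risen WASP list genes were wasb, from 0.247 ± 0.116 to 4.39 ± 1.11 FPKM, and the adaptor gene nck1a, from 71.9 ± 0.941 to 223 ± 34.0 FPKM. wasb passed the filter only through the clec16a MO libraries. Among the WASP list rows that fell, wipf3 and both fnbp1b rows passed it only through the control libraries. With rows of one name summed, 8 of the WASP list were called lower. wasa, the other WASP gene, read 6.99 ± 0.724 and 5.02 ± 1.31 FPKM with overlapping groups (limma adjusted p = 0.059). Under the filter and not tested, wipf1a read 1.33 ± 0.370 and 0.289 ± 0.147 FPKM, and nckap1l 0 and 0.00801 FPKM. These genes and brk1 were named after their values were seen.

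Regulators of branch lifetime and the GTPase switches were split. Of 11 tested genes of cortactin, coronins and inhibitors 3 rose, 6 fell and 2 did not pass (median -0.70). These shares, 27.3% higher and 54.5% lower, were near those of all tested genes (26.7% and 54.6%, median -0.66). The cortactin gene cttn, which stabilizes branches, fell from 28.9 ± 0.776 to 1.02 ± 0.0445 FPKM and coro1ca from 40.7 ± 2.13 to 14.7 ± 0.378 FPKM. coro1a, the coronin of leukocytes, rose from 3.32 ± 0.329 to 21.5 ± 2.32 FPKM; the others that rose, named after their values were seen, were hcls1, in mammals the cortactin relative of blood cells, from 0.919 ± 0.291 to 3.76 ± 0.478 FPKM, and the inhibitor gene arpin, from 12.4 ± 1.21 to 19.5 ± 5.60 FPKM. hcls1 passed the filter only through the clec16a MO libraries. The arpin call was near the threshold (limma adjusted p = 0.032). With array weights, 2 of this list were called higher in place of 3. The same held without control MO replicate 1, 2 or 3, and without clec16a MO replicate 1 or 2. Of 16 Rac and Cdc42 genes and exchange factors 4 were called higher (25%), 11 lower (68.8%) and 1 did not pass (median -0.86). Median centring gave 6 called higher and 4 lower, beside 39.7% and 38.1% of all genes. With quantile normalization 5 were called higher and 7 lower, beside 38.0% and 39.8% of all genes. rac2, the Rac of blood cells, rose from 12.7 ± 0.933 to 28.8 ± 3.19 FPKM, rac1b fell from 44.5 ± 0.145 to 9.11 ± 0.400 FPKM, and the other risen genes were rac1a, cdc42 and cdc42l2, named after their values were seen. rac1a made up 87.6% ± 0.336 of rac1a + rac1b with the control MO and 98.3% ± 0.293 with the clec16a MO.

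Nucleators of unbranched filaments were mostly lower, and other actin-related genes were mixed. Of 10 tested formin, Spire and Ena/VASP genes 9 fell and 1, enah, rose (median -1.55). enah, at 0.420 FPKM with the control MO, passed the filter only through the clec16a MO libraries. Several of those that fell, such as spire1a and fhod1, passed it only through the control libraries. With a filter at a mean of 5 FPKM, 2 of this list were called lower and 0 higher. Of 6 actin-related genes outside the complex 1 rose, 3 fell and 2 did not pass (median -0.57): actr6, of a chromatin remodeller, rose from 16.6 ± 0.671 to 47.1 ± 4.19 FPKM, while actr5 and actr8, of another remodeller, fell. The dynactin gene actr1 fell from 75.0 ± 1.43 to 42.2 ± 7.63 FPKM, a call lost under median centring (-0.14, limma adjusted p = 0.40). Over the 8 lists together, 15 of 91 tested rows rose (16.5%) and 63 fell (69.2%), with a median log2 difference of -1.08. Beside these stand 26.7% and 54.6% of all tested genes, with a median of -0.66. With median centring the counts were 24 and 45, where 39.7% and 38.1% of all genes were called.

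**Figure D5:**
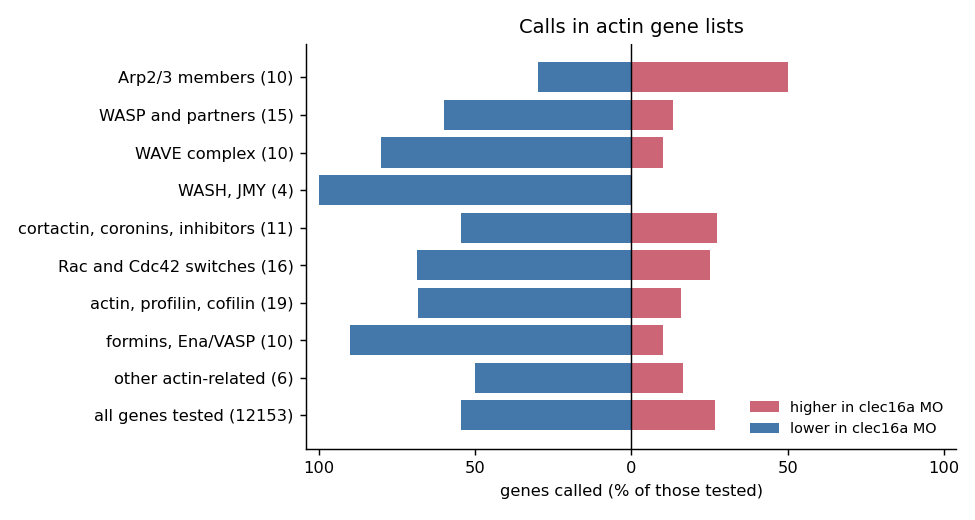
Share of tested genes called higher (red, to the right) and lower (blue, to the left) with the clec16a MO in the Arp2/3 members, in 8 actin gene lists and in all genes tested; the number tested is in brackets. The members are 50% higher and 30% lower, against 26.7% and 54.6% of all genes.

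Neutrophil and red cell markers were higher in the same libraries as the members that rose, and the summed macrophage markers were so through rows of a single name. The macrophage sum ran from 555 to 586 FPKM with the control MO and from 2653 to 3525 FPKM with the clec16a MO, with mpeg1.1, csf1ra and marco among the 12 of 19 rows at 0 in all 3 control libraries; csf1ra and marco, both macrophage receptor genes, were also near 0 with the clec16a MO (means of 0.0633 and 0.0341 FPKM). Of the 12 rows, 7 are named mfap4. Without the 8 rows of that name, left out after the data were seen, the macrophage sum ran from 555 to 586 FPKM and from 531 to 612 FPKM, with overlapping groups. Most of this remaining sum was 1 row, lgmn, at 547 ± 15.4 and 493 ± 49.7 FPKM, so it mainly follows that row. Of the 5 tested rows, 3 were called higher: mpeg1.1 (0 to 12.6 ± 2.32 FPKM), spi1b (0.0953 ± 0.0209 to 19.0 ± 2.50 FPKM) and coro1a. mpeg1.1 and spi1b passed the filter only through the clec16a MO libraries. lgmn and lcp1 were not called. Summed neutrophil markers ran from 302 to 310 FPKM and from 1403 to 1836 FPKM, with mpx, cpa5, ncf1 and both mmp13a rows at 0 in all 3 control libraries. Summed red cell markers ran from 2773 to 3104 FPKM and from 33894 to 59818 FPKM. Summed muscle markers ran from 3060 to 3088 FPKM in the first group and from 27.0 to 41.3 FPKM in the second. Summed epidermal markers ran from 1187 to 1213 FPKM, then from 89.7 to 102 FPKM. The part of these cells in the differences of the Arp2/3 members was not tested.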

How the data were processed

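Per the labels' protocols, SMARTer chemistry (oligo(dT) priming with template switching) turned little total RNA into cDNA, which was PCR-amplified, cut enzymatically and read as pairs. The authors deposited FPKM values in one table, 1 column per library. The submitters' processing notes name cutadapt 1.9, HISAT2 2.2.1 and StringTie 2.1.6; settings, genome build and annotation: not given in the sources used here. No coordinates are printed. FPKM carry no totals, so depth is unknown.

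Of 21853 rows, 16 with a calendar date for a name were left out; 400 names had more than 1 row, kept apart. Rows with a mean of at least 1 FPKM (12153) were tested as log2(FPKM + 1), a scale that understates changes of low genes, with limma 3.58.1 (R 4.3.3; moderated test with a mean-variance trend, group as the only term, two-sided, Benjamini-Hochberg over all genes tested, threshold 0.05). A row high in 1 group alone could pass this filter through that group, and a call toward the other group was then not possible. The code was tested on simulated data. Shares and ratios were compared with exact permutation tests (SciPy 1.17.1); figures used matplotlib 3.10.9. All 10 members, and 3 further paralogs, matched symbols of the RefSeq gene table.

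The members, lists, named genes and tests were chosen with earlier results of these data known. Named were all members, further paralogs, clec16a, genes of each actin list among the 4 with the smallest adjusted p, and markers; others are marked where named. The labels do not tie the libraries to different clutches: p-values cover the spread among the 6 libraries, possibly a technical one. A batch along the group boundary cannot be told apart from the morpholino. Alternatives were other pseudocounts and filters, median centring, quantile normalization, array weights, a replicate block, leaving out each library, leaving out globin, mitochondrial and ribosomal protein genes, and summing rows of one name.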

Additional observations from a re-analysis of the deposited data

How the results depend on the processing

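With each library centred on its median, 8 members were called higher in place of 5, and 24 genes of the 8 actin lists in place of 15, while the share of all genes called higher went from 26.7% to 39.7%; arpc1a turned from -0.23 to 0.46 and arpc4l from -0.38 to 0.32 on the log2 scale. In the lists, washc4 turned from -0.51 to 0.18 with median centring and to 0.42 with quantile normalization. A filter at a mean of 5 FPKM left 36 list genes called lower in place of 63, as fewer genes were tested. Counting actr2b, arpc5la and arpc5lb, 5 of 13 rows were called lower in place of 3 of 10, and 2 of 9 without actr3. Leaving out 1 library at a time gave 4 to 6 members higher and 3 to 4 lower. The changes in paralog share then ranged from 11.97 to 15.3 percentage points for arpc1b, -42.6 to -42.0 for arpc4l and 46.4 to 50.3 for arpc5b. arpc4, arpc5b, arpc2, arpc1b, arpc5a and actr3 kept their direction and call under each alternative in which they were tested. Library numbers did not pair the samples (correlations of same-numbered deviations 0.044, -0.018 and 0.0054); with a replicate block, 5 members were called higher and 3 lower. Causes were not tested. Depth is unknown, so no detection limit can be given for actr3.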
